A study of Mus musculus with 2 samples.

Results

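The protein serine/threonine phosphatases other than calcineurin were read out in the mouse cortex through the genes of their catalytic and regulatory subunits. Genes were taken by annotated name, as those of the Ppp1, Ppp2, Ppp4, Ppp5 and Ppp6 catalytic (c) and regulatory (r) subunits and the Ppm1 genes a to n, with the calcineurin genes (Ppp3) left out. Of 94 annotated genes with such a name, 80 had at least 1 read, out of 18510 annotated genes with reads. The 80 comprised 76 protein coding genes, the pseudogenes Ppp1ccb and Ppp4r1l-ps, and the antisense genes Ppp2r2cos and Ppp1r18os.

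The reads came from long-read RNA sequencing of left cerebral cortex from female mice aged 14 days. Their strain, B6CASTF1/J, is an F1 hybrid whose parents are C57BL/6J and CAST/EiJ, and the labels name no treatment. The series is 1 group of 2 libraries, replicate 1 and replicate 2, each numbered as a biological replicate and made from 2 µg of RNA. The biosample text of replicate 1 mentions several females and that of replicate 2 a single one, so replicate 1 may be a pool. Both share 1 donor entry, and separate animals are not named. The p-values therefore weigh a difference between these libraries against counting error, and no condition is tested.

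These enzymes remove phosphate from serine and threonine and so oppose protein kinases. PP1, PP2A, PP4 and PP6 each pair a few catalytic subunits with many regulatory ones, which choose the substrate and the place in the cell, whereas PP5 and the metal-dependent PPM enzymes carry their own targeting parts. In neurons PP1 and PP2A act at dendritic spines, on receptors and channels and on cytoskeletal proteins such as tau.

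Replicate 1 held 1072344 mouse reads and replicate 2 held 753520. A single read was worth 0.933 reads per 1000000 mouse reads (RPM) in replicate 1. In replicate 2 it was worth 1.33 RPM. Genes without a read could have had a level of up to 2.80 RPM in replicate 1 and 3.98 RPM in replicate 2, the worth of 3 reads. Each long read stands for 1 cDNA, so RPM is not divided by transcript length; the leading annotated transcripts of the 10 most abundant phosphatase genes ran from 1469 to 7102 bases. Markers of excitatory neurons were abundant, with 6 of 6 genes read and summed levels of 4607 RPM in replicate 1 and 4220 RPM in replicate 2. Of the choroid plexus markers, Ttr had 27 reads in replicate 1 and 193 in replicate 2, Folr1 and Aqp1 each 0 and 1, and Kl none. Of the Purkinje cell markers, Calb1 had 377 and 289 reads, Car8 12 and 13, and Pcp2 none. Where both libraries are not given, values are means ± SD (n = 2). Intervals of shares are Wilson 95% intervals, and these and the limits of a count of 0 cover counting error only. In bulk tissue, fewer cells of a type and less RNA per cell cannot be told apart.

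The phosphatase genes took 9182 reads, 0.856% of the mouse reads, in replicate 1 and 6035 reads, 0.801%, in replicate 2. Their median level was 34.2 RPM over the 80 genes, against 10.8 RPM over all annotated genes with reads. Of the 80, 25 reached 100 RPM and 15 stayed under 10 RPM (18.75%), a level under which 48.8% of all genes lay. The 10 most abundant genes held 56.6% of the phosphatase reads in replicate 1 and 54.9% in replicate 2. PP2A held more of the reads than any other phosphatase. Its scaffold, catalytic and B subunit genes summed to 1505, 1190 and 1599 RPM in replicate 1, and to 1364, 1132 and 1578 RPM in replicate 2.

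**Figure D1:**
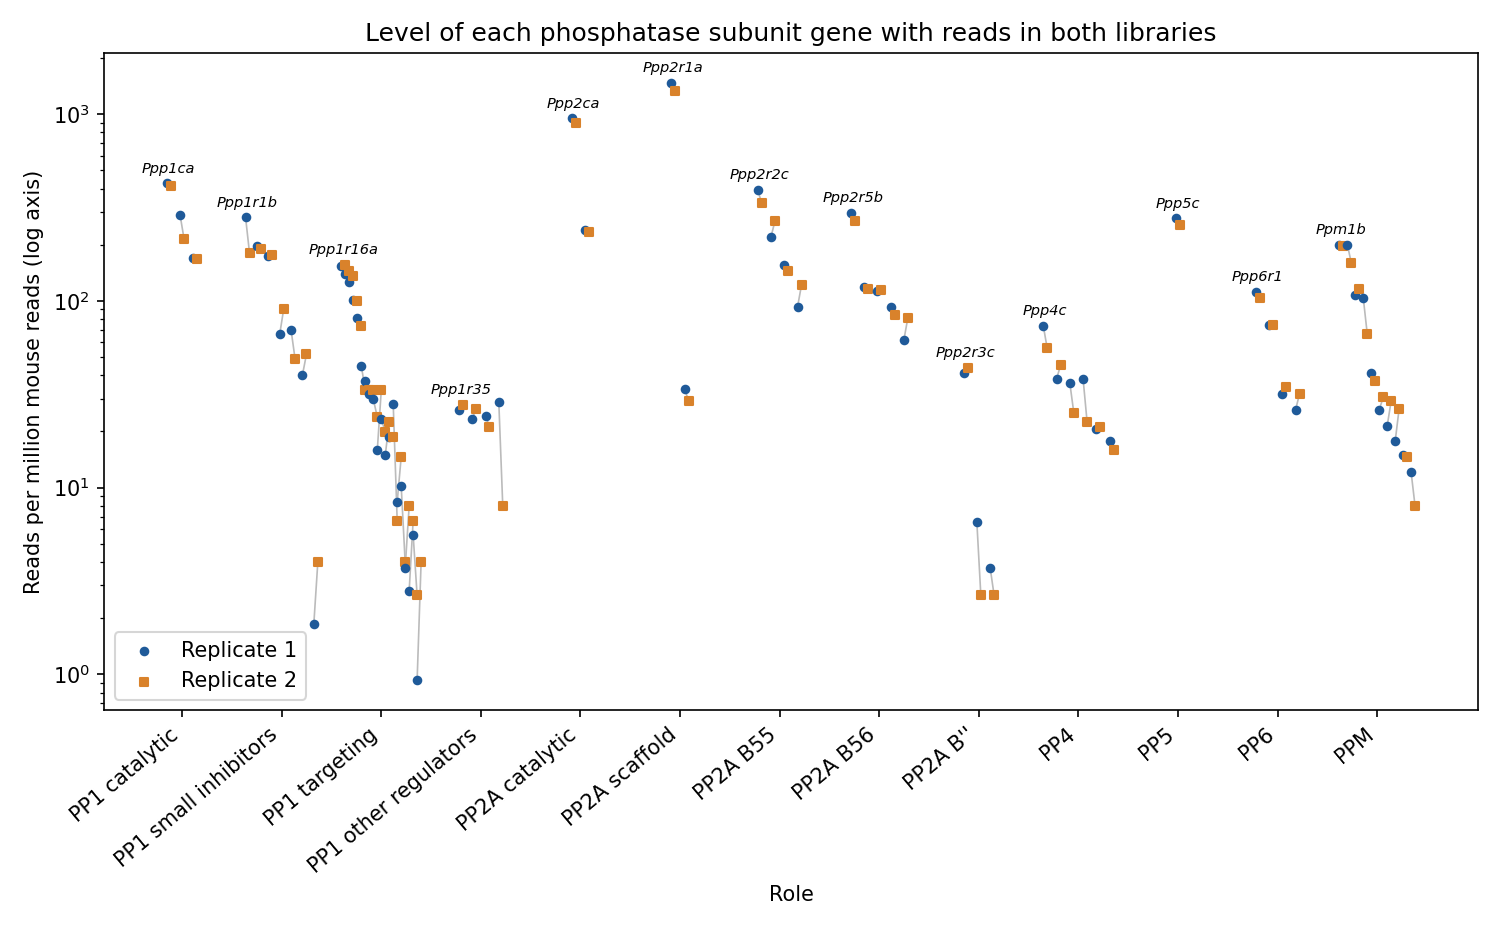
Level of each protein coding phosphatase gene with reads in both libraries, in RPM on a log axis, grouped by role; circles are replicate 1, squares replicate 2, and the most abundant gene of each role is named. PP1 targeting joins the glycogen, actin, myosin, nuclear, eIF2alpha and ASPP groups. Ppp2r1a (1472 RPM in replicate 1 and 1335 RPM in replicate 2) and Ppp2ca (950.3 and 898.5 RPM) stand above all other genes.

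Ppp2ca encodes the alpha catalytic subunit of PP2A and was the most abundant catalytic gene. It had 1019 reads in replicate 1 and 677 in replicate 2, or 950.3 and 898.5 RPM. Ppp2cb, the gene of the beta subunit, had 257 and 176 reads, or 239.7 and 233.6 RPM. Ppp2ca thus made up 79.9% (77.6 to 82.0%) of the PP2A catalytic reads in replicate 1 and 79.4% (76.5 to 82.0%) in replicate 2. Fisher's exact test of that share between the libraries gave a two-sided p of 0.784 (adjusted p = 1 over 2 pairs).

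The PP2A scaffold, the horseshoe-shaped A subunit that holds the other subunits together, came almost wholly from Ppp2r1a. Ppp2r1a had 1578 reads (1472 RPM) in replicate 1 and 1006 reads (1335 RPM) in replicate 2. Ppp2r1b, its paralog, had 36 and 22 reads. The share of Ppp2r1a in the scaffold reads was 97.8% in replicate 1 and 97.9% in replicate 2, with an adjusted Fisher's exact p of 1. At 1403 ± 96.5 RPM, Ppp2r1a ranked first and Ppp2ca, at 924 ± 36.6 RPM, second, and their ranges did not overlap over all read classes. On annotated transcripts alone the order was the other way round, with Ppp2ca at 1341 and Ppp2r1a at 1139. Levels on annotated transcripts alone are scaled to the annotated-transcript reads of each library in place of its mouse reads. They cannot be set beside the RPM values over all read classes.

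The B55 family holds the B subunits best known for acting on tau and microtubules, and 2 of its members, Ppp2r2b and Ppp2r2c, are known as brain-enriched. Ppp2r2c had 394 RPM in replicate 1 and 333 RPM in replicate 2, the highest of all B subunit genes. Ppp2r2b had 221 and 268 RPM, Ppp2r2a 157 and 145 RPM, and Ppp2r2d 93.3 and 122 RPM. Ppp2r2c took 45.5% (42.3 to 48.7%) of the B55 reads in replicate 1 and 38.4% (34.7 to 42.2%) in replicate 2. Ppp2r2b took 25.6% (22.9 to 28.5%) and 30.9% (27.5 to 34.5%). The intervals of Ppp2r2c did not overlap between the libraries, by the narrow margin of 42.3 against 42.2%, and the share itself was not tested. The gene was not called different in level (adjusted p = 0.536, exact binomial test). The summed B55 level was 864 RPM in replicate 1 and 868 RPM in replicate 2.

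Among the B56 subunits, which bind short docking motifs of their substrates, Ppp2r5b led with 297 RPM in replicate 1 and 267 RPM in replicate 2. Ppp2r5a stood at 117 ± 2.76, Ppp2r5c at 113 ± 0.915, Ppp2r5d at 88.4 ± 6.82 and Ppp2r5e at 71.3 ± 13.7 RPM. Ppp2r5b therefore held 43.4% of the B56 reads in replicate 1 and 40.4% in replicate 2. On annotated transcripts alone the level of Ppp2r5c was 25.3, scaled to the annotated-transcript reads and so not comparable with the RPM values above. Its share of the B56 reads was then 3.78%, against 16.9% over all read classes, and Ppp2r5c stood last of the 5. The B'' family was scarce, with 51.3 RPM in replicate 1 and 49.1 RPM in replicate 2 in sum. Of these, Ppp2r3c had 44 and 33 reads, Ppp2r3a 7 and 2, and Ppp2r3d 4 and 2.

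**Figure D2:**
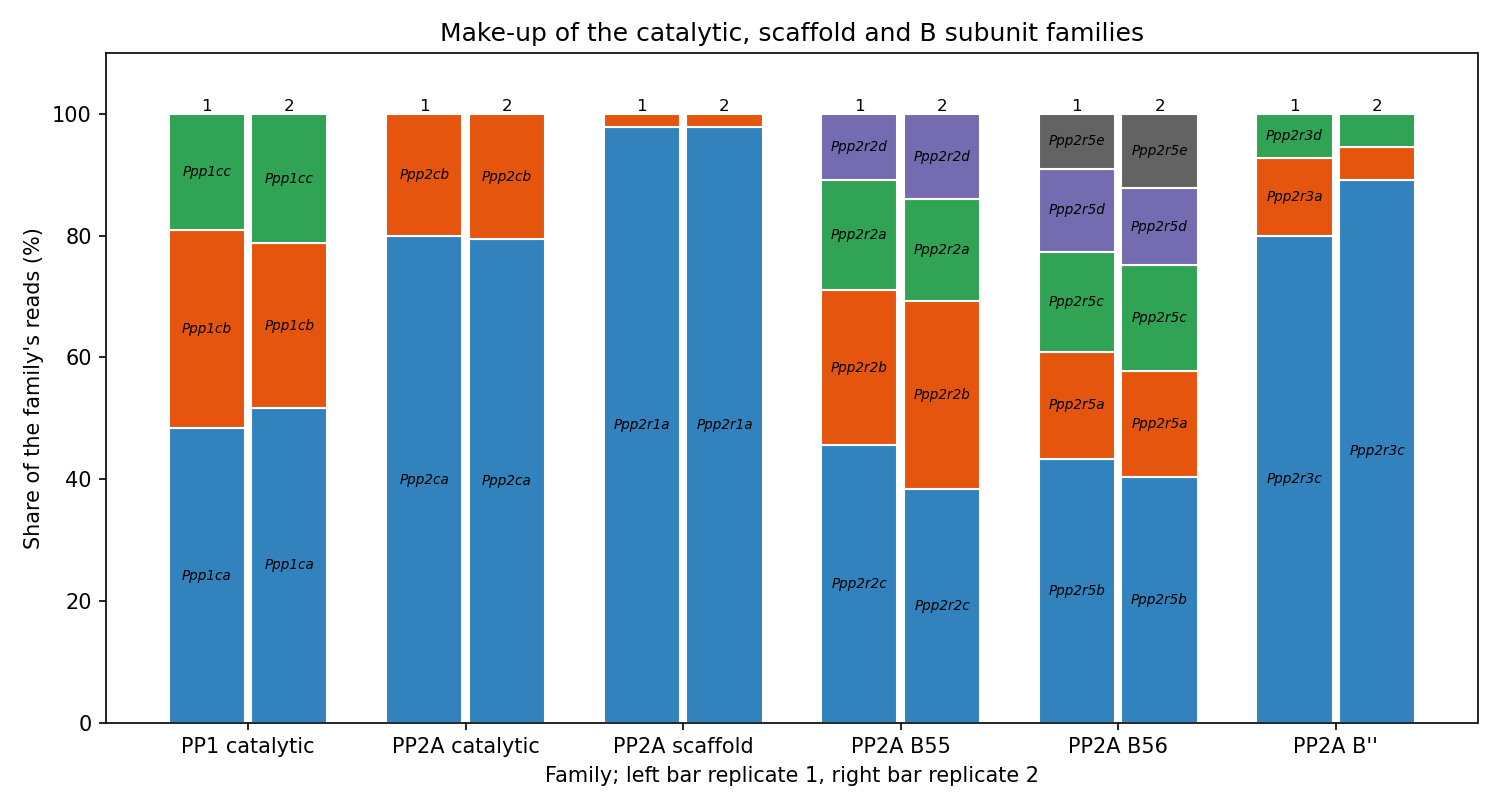
Share of each gene in the reads of its family, in percent; for each family the left bar is replicate 1 and the right bar replicate 2, and segments under 6% are not named. Ppp2r1a fills 97.8% of the scaffold bar in replicate 1 and 97.9% in replicate 2, while no B55 or B56 gene reaches 50% in either library.

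PP1 has 3 catalytic genes, of which Ppp1ca held the most reads. Ppp1ca (PP1 alpha) had 459 reads in replicate 1 and 309 in replicate 2, or 428 and 410 RPM. Ppp1cb (PP1 beta), the catalytic partner of the myosin-targeting subunits, had 309 and 162 reads, or 288 and 215 RPM. Ppp1cc (PP1 gamma) had 182 and 127 reads, or 170 and 169 RPM. Ppp1ca made up 48.3% (45.2 to 51.5%) of these reads in replicate 1 and 51.7% (47.7 to 55.7%) in replicate 2.

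Ppp1cc makes 2 proteins with different ends, PP1 gamma1 and gamma2, of which gamma2 is known for its abundance in testis. The end of each coding sequence, from the GENCODE M21 transcripts on mm10 (chromosome 5, plus strand), is shown because the reads tell the forms apart there. Lower case marks the last 30 bases of the shared exon part and capitals mark the bases that belong to that form, stop codon included. Ppp1cc-202, the gamma1 form, runs on through chr5:122174116-122174144, and Ppp1cc-201, the gamma2 form, splices to chr5:122174980-122175050. The third sequence is the matching end of Ppp1ccb (chr7:119741041-119741099, plus strand), an annotated transcribed processed pseudogene.
Ppp1cc-202: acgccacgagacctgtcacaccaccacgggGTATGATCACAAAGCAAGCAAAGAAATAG
Ppp1cc-201: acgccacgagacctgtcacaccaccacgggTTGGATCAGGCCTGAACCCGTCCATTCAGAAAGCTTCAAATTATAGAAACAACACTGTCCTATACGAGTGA
Ppp1ccb-201: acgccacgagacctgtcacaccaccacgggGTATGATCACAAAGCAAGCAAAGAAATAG

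The gamma1 end was the main one in the cortex. Of the reads that held a full splice chain, 147 of 175 in replicate 1 (84.0%, 77.8 to 88.7%) and 108 of 120 in replicate 2 (83.3 to 94.2%) used it. The gamma2 end had the other 28 and 12 reads. The gamma1 form has 323 codons before the stop and the gamma2 form 337. End exons were tabulated after the transcript shares had been seen, and their shares are a description.

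Ppp1ccb had 64 reads in replicate 1 and 45 in replicate 2, or 59.7 RPM in both. Its annotated copy of 972 bases was identical to the gamma1 coding sequence at 972 of 972 positions of the reference. Within that stretch a read without introns cannot be told apart between Ppp1ccb and a spliced Ppp1cc cDNA, so the counts of both genes are uncertain to that extent.

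The remaining catalytic genes were moderate. Ppp5c, the gene of PP5, had 277 RPM in replicate 1 and 256 RPM in replicate 2. Ppp6c had 74.6 and 74.3 RPM, and Ppp4c 73.7 and 55.7 RPM. The 8 catalytic genes of the PPP family together reached 2501 RPM in replicate 1 and 2312 RPM in replicate 2. By mean level, Ppp2r5b, Ppp5c, Ppp1cb, Ppp2r2b, Ppp2cb and Ppp1r1b followed each other in ranks 5 to 10, and each overlapped in range with the next, so their order is not resolved.

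PP4 is a centrosomal and DNA-repair phosphatase whose core regulators are encoded by Ppp4r2, Ppp4r3a and Ppp4r3b. Ppp4r2 stood at 41.7 ± 4.87 RPM, Ppp4r3b at 30.8 ± 7.89, Ppp4r1 at 30.4 ± 11.1, Ppp4r3a at 20.9 ± 0.508 and Ppp4r4 at 16.8 ± 1.27. These regulators summed to 151 RPM in replicate 1 and 130 RPM in replicate 2. Among the SAPS-domain regulators of PP6, Ppp6r1 had 112 and 104 RPM, Ppp6r3 31.7 and 34.5 RPM and Ppp6r2 26.1 and 31.9 RPM. Ppp6r1 thus took 65.9% (58.8 to 72.4%) of the PP6 regulator reads in replicate 1 and 60.9% (52.3 to 69.0%) in replicate 2. In Ppp6r2, replicate 1 had only 2 of 28 reads on an annotated transcript and replicate 2 only 1 of 24.

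Small proteins that inhibit PP1 were among the most abundant PP1 regulators. Ppp1r1b encodes DARPP-32, the inhibitor switched on by cAMP signalling and best known from striatal projection neurons, and had 302 reads in replicate 1 and 136 in replicate 2. Ppp1r2 (inhibitor-2) had 210 and 143 reads, and Ppp1r1a (inhibitor-1) 186 and 132. In RPM these were 282 and 180 for Ppp1r1b, 196 and 190 for Ppp1r2, and 173 and 175 for Ppp1r1a. Ppp1r14c, a phosphorylation-dependent inhibitor known from brain, had 66.2 RPM in replicate 1 and 90.2 RPM in replicate 2. Ppp1r11 (inhibitor-3) had 69.9 and 49.1 RPM, and Ppp1r14b 40.1 and 51.8 RPM. The smooth muscle inhibitor gene Ppp1r14a had 2 and 3 reads, and Ppp1r17, known from Purkinje cells, 1 and 0. The 8 inhibitor genes with reads summed to 830.0 RPM in replicate 1 and 740.5 RPM in replicate 2.

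The targeting subunits of PP1 all lay below Ppp1r1a by mean level. Spinophilin, the product of Ppp1r9b that anchors PP1 at actin in dendritic spines, had 127 RPM in replicate 1 and 135 RPM in replicate 2. Its paralog Ppp1r9a (neurabin) had 29.8 and 23.9 RPM, and Ppp1r18 (phostensin) 10.3 and 3.98 RPM. In the myosin-targeting group, Ppp1r16a had 155 and 157 RPM and Ppp1r12c 139 and 145 RPM. Ppp1r12a, whose product MYPT1 is the classical smooth muscle subunit, had 9 and 11 reads, and Ppp1r12b 30 and 5. Of the nuclear subunits, Ppp1r7 (Sds22) had 101 and 99.5 RPM, Ppp1r10 (PNUTS) 31.7 and 33.2 RPM, and Ppp1r8 (NIPP1) 18.7 and 18.6 RPM.

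Further PP1 subunits direct it to eIF2alpha, glycogen and p53-family proteins. For eIF2alpha, the stress-induced Ppp1r15a (GADD34) had 44.8 RPM in replicate 1 and 33.2 RPM in replicate 2, and the constitutive Ppp1r15b (CReP) 15.9 and 33.2 RPM. The 6 glycogen-targeting genes with reads summed to 82.1 RPM in replicate 1 and 92.9 RPM in replicate 2. Ppp1r3g led them with 40 and 25 reads, before Ppp1r3c with 25 and 15 and Ppp1r3f with 16 and 17. The muscle gene Ppp1r3a had no read, and the liver gene Ppp1r3b had 0 reads in replicate 1 and 2 in replicate 2. Of the ASPP genes, Ppp1r13b had 87 and 55 reads and Ppp1r13l 1 and 3. Further regulators that reached 10 reads over both libraries were Ppp1r35, a centriole protein, with 28 and 21 reads, Ppp1r21, an endosomal protein, with 26 and 16, Ppp1r37 with 25 and 20, and Ppp1r26 with 31 and 6.

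The PPM genes encode single-chain, magnesium- or manganese-dependent phosphatases, and all 12 had reads. Ppm1b and Ppm1a, the closely related PP2C beta and alpha, led with 199.6 and 200.5 RPM in replicate 1, and with 196 and 159 RPM in replicate 2. Ppm1g, a nuclear enzyme linked to RNA splicing, had 108 and 115 RPM. Ppm1e, which dephosphorylates PAK and CaM kinases, had 104 and 66.4 RPM. Ppm1l, Ppm1h, Ppm1f, Ppm1d, Ppm1m and Ppm1k ran from 39.1 to 10.0 RPM by mean. Ppm1j and Ppm1n each had 1 read in replicate 1 and none in replicate 2.

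At the bottom of the range, Ppp1r32 had 3 reads in replicate 1 and 0 in replicate 2, the antisense gene Ppp1r18os 1 and 0, and the antisense gene Ppp2r2cos 2 and 2. No read in either library fell on 14 matching genes. They are Ppp1r1c, Ppp1r14d, Ppp1r27, Ppp1r36, Ppp1r3a, Ppp1r42, the pseudogene Ppp4r3c-ps and 7 Ppp1r2 pseudogenes.

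Few differences in level between the libraries passed the test. Of 67 phosphatase genes with 10 or more reads in total, 1 was called different by a two-sided exact binomial test with Benjamini-Hochberg adjustment over all 11339 genes tested, where 0.882% of genes were called (0.52% higher in replicate 1). The called gene was Ppp1r1b, higher in replicate 1 with 282 RPM against 180 RPM in replicate 2. Its log2 ratio, replicate 1 over replicate 2, was 0.64 (adjusted p = 0.00278). At an unadjusted p under 0.05 stood 10 of 67 phosphatase genes, 8 of them higher in replicate 1 by point value, where 8.6% of all genes did, 521 of 975 of them higher in replicate 1. The median log2 ratio was 0.04 over the 67 genes, with 39 positive and 28 negative, and 0.0035 over all genes tested.

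Ppp1r1b is set here beside markers of other cells. All 9 markers of striatal projection neurons had reads, and their summed level was 430 RPM in replicate 1 and 319 RPM in replicate 2. Of these, 8 were tested and 0 called, with a median log2 ratio of 0.38 and 6 positive. Among the receptors that define striatal projection neurons, Drd1 had 22 reads in replicate 1 and 16 in replicate 2, Drd2 had 8 and 3, and Adora2a, with too few reads to be tested, 6 and 0. The neuropeptide genes had 93 and 40 reads (Penk) and 14 and 14 reads (Tac1), with log2 ratios of 0.70 and -0.51. Of the 8 markers of mature oligodendrocytes, 6 were called higher in replicate 1, and their sum was 6090 RPM in replicate 1 and 3592 RPM in replicate 2. The choroid plexus markers summed to 25.2 and 259 RPM, with 1 of them called lower in replicate 1. No marker was called for excitatory neurons, inhibitory neurons, astrocytes, oligodendrocyte precursors, microglia, endothelial and mural cells or Purkinje cells. The part of any of these cell types in the level of Ppp1r1b was not tested.

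Below the threshold, the largest ratios where a gene had at least 50 reads over both libraries were those of Ppp4r1 (0.74), Ppm1e (0.63), Ppp4r3b (0.51) and Ppp1r11 (0.50) on one side. On the other side were Ppp1r14c (-0.45), Ppp2r5e (-0.40), Ppp2r2d (-0.39), Ppp1r14b (-0.37) and Ppp6r2 (-0.29). Their adjusted p-values ran from 0.281 to 0.986 in the same exact binomial test. Smaller adjusted p-values belonged to Ppp1r12b (0.080), Ppp1r26 (0.133) and Ppp1cb (0.140), which were named for this after their values had been seen. In Ppp1r12b, replicate 1 had 27 of 30 reads and replicate 2 had 5 of 5 reads in the class Genomic, the class of the authors' tables for models that overlap a gene without meeting the definition of the other classes.

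**Figure D3:**
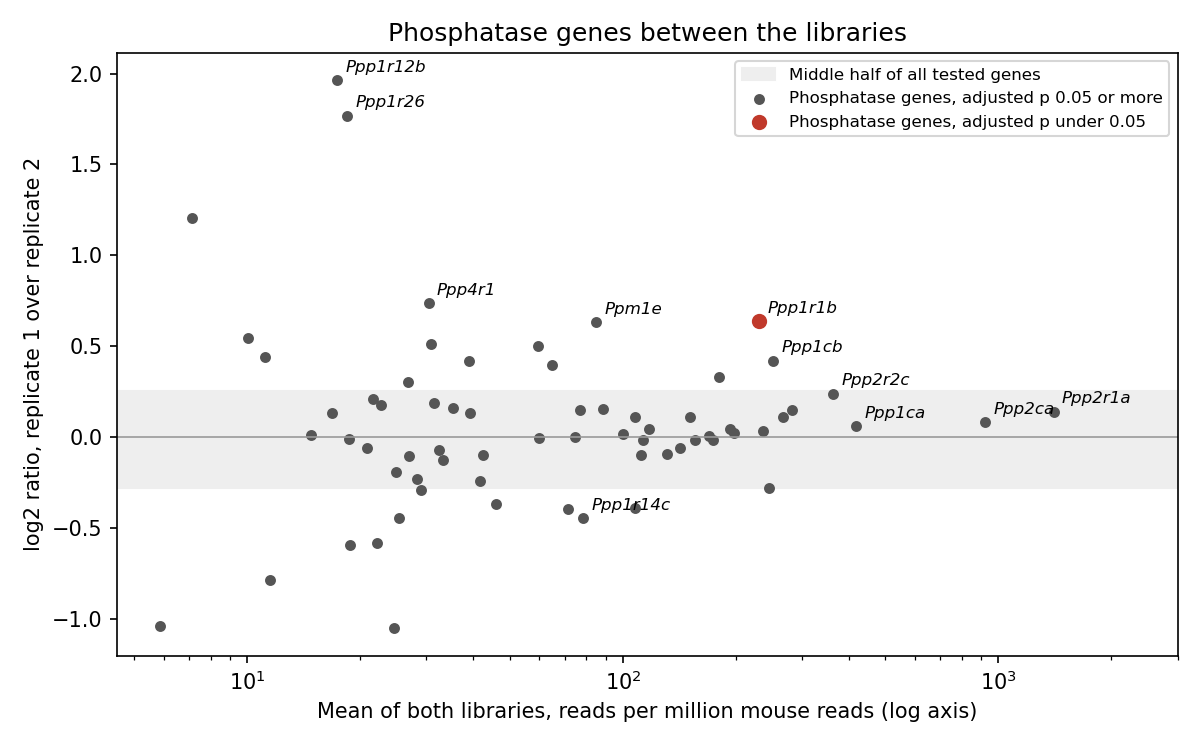
log2 ratio, replicate 1 over replicate 2, against the mean level in RPM on a log axis, for the 67 tested phosphatase genes. The shaded band is the middle range from the lower to the upper quartile of all 11339 tested genes (-0.28 to 0.25). Ppp1r1b, in red, is the 1 gene with an adjusted p under 0.05, and the widest ratios lie at low levels.

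Genes that work with these phosphatases without bearing their names were read as well. All 28 listed partners had reads, 22 were tested and 0 were called, and their summed level was 2880 RPM in replicate 1 and 2812 RPM in replicate 2. The most abundant were Strn4 (582 ± 77.8 RPM), a striatin that carries PP2A into the STRIPAK complex, the PP2A-B55 inhibitors Ensa (410 ± 18.1) and Arpp19 (365 ± 14.5), the methylesterase Ppme1 (280 ± 16.5) and the PP2A inhibitor Set (185 ± 27.8). Their median log2 ratio was 0.02 with 12 of 22 positive.

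Most phosphatase genes used 1 dominant splice chain, the ordered set of introns of a read. In 36 phosphatase genes with 20 or more full-chain reads in each library and at least 2 chains, the leading chain held a median of 88.1% of full-chain reads, and 83.8% over all 4908 such genes. The leading chain held 90% or more in 14 of the 36, such as Ppp2ca, at 971 of 978 full-chain reads for replicate 1 and 641 of 648 for replicate 2. No phosphatase gene was called different in its leading share between the libraries (0 of 36 by Fisher's exact test, Benjamini-Hochberg adjusted), where 0.244% of all genes were. At an unadjusted p under 0.05 stood 4 of the 36, Ppp4r2, Ppp1r1a, Ppp2r5b and Ppm1a, where 4.99% of all genes did (245 of 4908). Ppp4r2 had the widest gap of these, with 34 of 35 reads on its leading chain in replicate 1 and 26 of 33 in replicate 2.

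The leading chain was an annotated transcript in 35 of the 36 genes, and the exception was Ppp2r5c. Its leading chain had 66 of 101 full-chain reads in replicate 1 (65.3%) and 43 of 76 in replicate 2 (56.6%). It followed the annotated retained-intron transcript Ppp2r5c-207 in 12 introns and in addition spliced out chr12:110567856-110568953 on the plus strand, an intron that Ppp2r5c-201, Ppp2r5c-202, Ppp2r5c-204 and Ppp2r5c-205 also remove. A second unannotated chain, with 18 and 10 reads, added the intron chr12:110570769-110580400 of Ppp2r5c-202. Annotated transcripts of Ppp2r5c took only 11 of its 121 reads for replicate 1 and 17 of its 86 for replicate 2.

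Both chains began at the upstream first exon of Ppp2r5c, which Ppp2r5c-205 does not use. The 2 coding starts are shown from the annotated start codon, in capitals, to the shared exon (GENCODE M21, mm10, plus strand). The upstream one lies in 3 exons within chr12:110447359-110466020 and the downstream one in chr12:110485859-110485952.
upstream start: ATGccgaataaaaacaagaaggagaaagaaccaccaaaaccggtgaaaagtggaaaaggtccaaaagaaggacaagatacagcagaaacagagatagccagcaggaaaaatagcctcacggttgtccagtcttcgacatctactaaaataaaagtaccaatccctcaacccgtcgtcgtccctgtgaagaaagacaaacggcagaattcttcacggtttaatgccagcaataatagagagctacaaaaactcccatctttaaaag
downstream start: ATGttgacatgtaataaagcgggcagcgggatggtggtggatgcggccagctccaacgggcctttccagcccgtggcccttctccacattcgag

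The upstream first exon was used in 90 of 101 full-chain reads in replicate 1 (89.1%, 81.5 to 93.8%) and in 58 of 76 in replicate 2 (76.3%, 65.6 to 84.5%). From its start codon the leading chain held 509 codons before the stop and the second chain 542, while the annotated transcripts Ppp2r5c-205 and Ppp2r5c-201 hold 452 and 524. The stop of the leading chain lay at the same base as that of Ppp2r5c-205. Reading frames come from the reference sequence and are a description of the chains, not evidence of protein.

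Beyond Ppp2r5c, unannotated chains were many and mostly seen once. Of 533 such chains over the phosphatase genes, 63 (11.8%) occurred in both libraries with more than 1 read in at least 1 of them. A single read was all that 401 had. By the same rule, 96 of 127 annotated chains (75.6%) occurred in both. The most abundant ones shared by the libraries after Ppp2r5c were in Ppp2r2d (9 and 9 reads, and 6 and 11), Ppp2r2c (14 and 2), Ppp5c (6 and 8), Ppp1r37 (9 and 5) and Ppp2r2b (5 and 6). In Ppp1r37 the chain removed chr7:19530836-19532107 on the minus strand, an intron outside the annotation, and held 36.0% of 25 full-chain reads in replicate 1 and 26.3% of 19 in replicate 2.

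Ppm1b divided its reads between a pair of last exons that give the protein different ends. The exon of Ppm1b-202 was used by 115 of 198 full-chain reads in replicate 1 (58.1%, 51.1 to 64.7%) and by 82 of 139 in replicate 2 (59.0%, 50.7 to 66.8%). That of Ppm1b-201 had 75 reads (37.9%) in replicate 1 and 55 (39.6%) in replicate 2. The intervals of each exon overlapped between the libraries, and those of the 2 exons did not overlap within either. The coding part of each last exon, with the stop codon in capitals, shows how far the ends differ: 39 bases at chr17:85015409-85015447 and 300 bases at chr17:85013566-85013865, both on the plus strand (GENCODE M21, mm10). Ppm1b-202 holds 390 codons before the stop and Ppm1b-201 holds 477.
Ppm1b-202: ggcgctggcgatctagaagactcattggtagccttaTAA
Ppm1b-201: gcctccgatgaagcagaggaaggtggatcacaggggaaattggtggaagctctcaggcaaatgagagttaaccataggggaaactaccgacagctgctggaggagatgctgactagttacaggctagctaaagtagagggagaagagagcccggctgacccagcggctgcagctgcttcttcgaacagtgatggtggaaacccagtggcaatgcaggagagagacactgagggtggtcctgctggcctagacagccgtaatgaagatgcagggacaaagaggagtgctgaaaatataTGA

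Second chains were sought in genes with 20 or more full-chain reads over both libraries together. In 7 of these genes such a chain held 20% or more of the reads in both libraries. Besides Ppm1b-201 these were Ppp1r16a-205 (32.1% in replicate 1 and 28.7% in replicate 2), Ppp1r3g-202 (39.5 and 30.0%), Ppp4r3b-202 (38.7 and 21.4%), the unannotated Ppp1r37 chain, Ppp1r15b-202 (20.0 and 30.0%) and an annotated coding chain of Ppp1r10 (4 of 10 and 4 of 11 reads). Ppp1r3g-202 and Ppp1r15b-202 are annotated without a coding sequence. Full-chain reads were few in Ppp1r15b, with 10 in replicate 1 and 20 in replicate 2, and in Ppp1r10, with 10 and 11. They were also few for Ppp4r3b-202, at 12 of 31 in replicate 1 and 3 of 14 in replicate 2. Ppp1r3g-202 rested on 15 of 38 and 6 of 20. In Ppp4c, which encodes the PP4 catalytic subunit, the first exon of Ppp4c-201 had 64 of 76 full-chain reads for replicate 1 and 28 of 39 for replicate 2, and that of Ppp4c-211 had 12 and 11.

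Internal alternative exons were counted as the share of spanning reads that contain them. In all, 9 exons in 6 phosphatase genes had 20 or more spanning reads in each library and a mean inclusion from 5 to 95%. None was called different between the libraries (0 of 9 by Fisher's exact test, Benjamini-Hochberg adjusted), where 0.0479% of 2089 exons were, and 1 of the 9 stood at an unadjusted p under 0.05, where 4.6% of all exons did (96 of 2089). No length of the 9 exons was a multiple of 3. The share of such lengths over all 2089 exons was not counted.

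Ppp2r2d, the B55 delta gene, held 4 of the 9. An added exon of 97 bases was in 16 of 92 spanning reads in replicate 1 (17.4%, 11.0 to 26.4%) and in 13 of 90 in replicate 2 (14.4%, 8.64 to 23.2%). An exon of 166 bases was in 78 of 92 (84.8%, 76.1 to 90.7%) and 67 of 88 (76.1%, 66.3 to 83.8%). The exons of 98 and 113 bases had mean inclusions of 93.2 and 92.6%. That of 98 bases was included at 96.7% in replicate 1 and 89.8% in replicate 2. That of 113 bases was included at 96.7 and 88.5%, and was the 1 of the 9 with an unadjusted p under 0.05 (Fisher's exact p = 0.0438). Put into or taken out of the coding transcript Ppp2r2d-201, which has 453 codons, the added exon left 72 codons before a stop and the loss of the exon of 166 bases left 74, with 6 and 4 exon junctions after the stop. Only 53 of 89 full-chain reads in replicate 1 and 40 of 89 in replicate 2 followed Ppp2r2d-201. These exons lie at chr7:138865021-138865117 and chr7:138869690-138869855 on the plus strand and are shown whole because the frame of a chain changes with each of them.
Ppp2r2d added exon: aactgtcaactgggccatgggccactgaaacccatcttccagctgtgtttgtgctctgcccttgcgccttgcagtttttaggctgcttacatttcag
Ppp2r2d skipped exon: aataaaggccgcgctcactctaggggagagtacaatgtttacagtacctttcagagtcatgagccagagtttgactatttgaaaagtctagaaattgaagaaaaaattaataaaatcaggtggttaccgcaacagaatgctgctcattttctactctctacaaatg

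Ppp1r1a, the gene of inhibitor-1, had an exon of 61 bases at chr15:103534350-103534410 on the minus strand. It was in 146 of 175 spanning reads in replicate 1 (83.4%, 77.2 to 88.2%) and in 107 of 120 in replicate 2 (89.2%, 82.3 to 93.6%). Without it the coding frame of 171 codons stopped after 29, with 4 exon junctions after the stop. The annotated transcript that lacks it, Ppp1r1a-202, is of a type without a coding sequence and had 28 reads in replicate 1 and 13 in replicate 2. The exon is printed on the strand of the gene.
Ppp1r1a exon: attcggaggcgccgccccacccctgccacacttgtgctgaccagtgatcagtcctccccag

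The other 4 exons were an exon of 131 bases in Ppp1r12c (mean inclusion 94.2%), one of 197 bases in Ppp2r5e (93.3%), one of 167 bases upstream of the coding sequence of Ppp1r16a (34.7%), and one of 112 bases in Ppp2r1b (7.54%). Without its exon the frame of Ppp1r12c-201 shortened to 125 codons and that of Ppp2r5e-201 to 63, against 782 and 467 codons with it. The Ppp2r1b exon belongs to an annotated nonsense-mediated decay transcript, and its inclusion shortened the frame of Ppp2r1b-202 to 488 codons, against 601 without it. It rested on 2 of 36 spanning reads in replicate 1 and 2 of 21 in replicate 2.

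**Figure D4:**
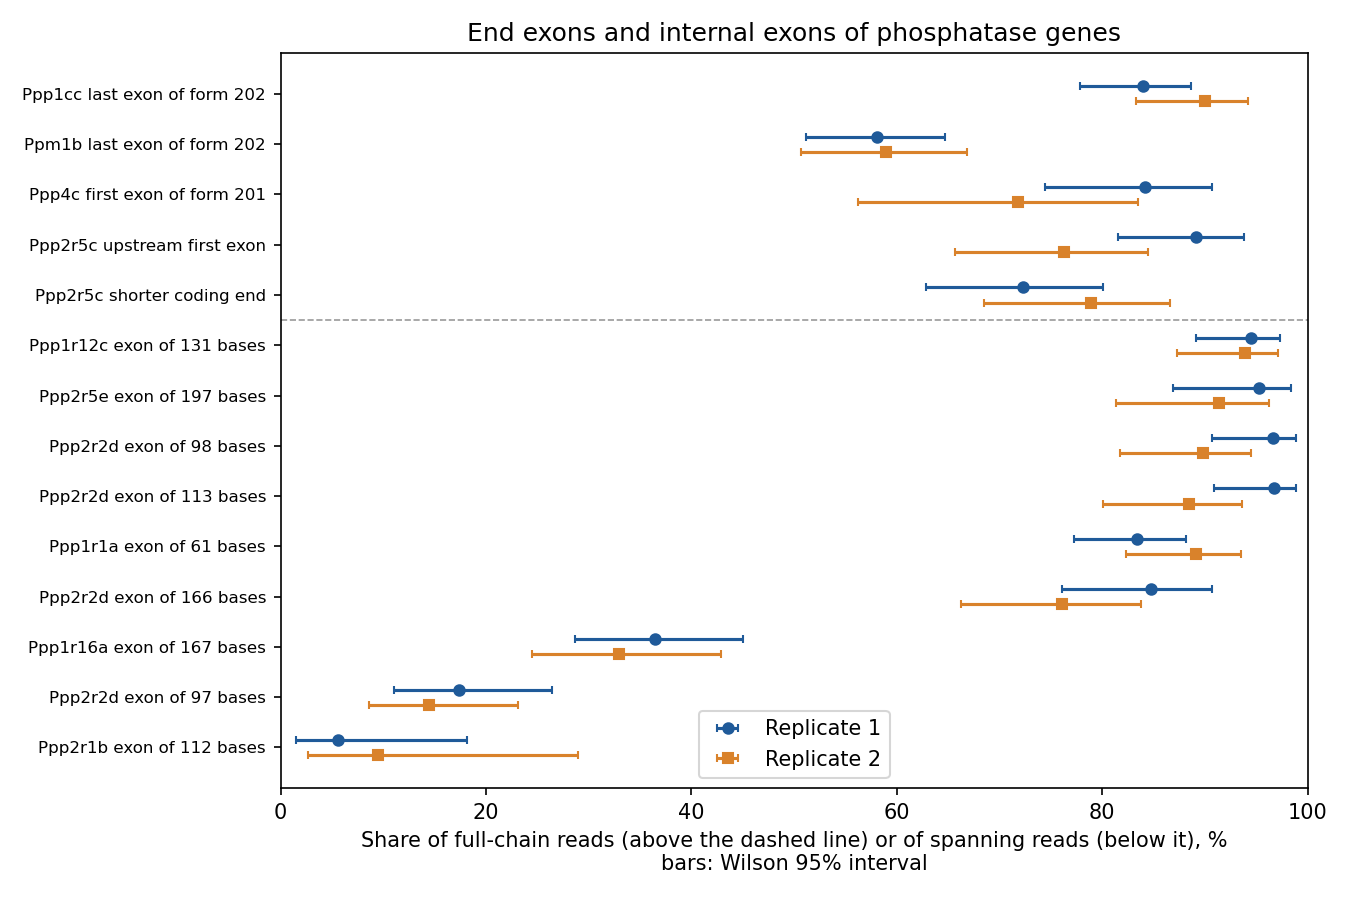
Shares in percent with Wilson 95% intervals as bars; circles are replicate 1 and squares replicate 2. Above the dashed line, shares of full-chain reads with the named end exon; below it, shares of spanning reads that contain the internal exon. The intervals of the libraries overlap for every end exon and internal exon shown, and Ppm1b stands nearest the middle among the end exons, at 58.1% in replicate 1 and 59.0% in replicate 2.

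Transcripts of a non-coding type took few reads. They held 130 of 6848 annotated reads (1.90%, 1.60 to 2.25%) in replicate 1 and 69 of 4415 (1.56%, 1.24 to 1.97%) in replicate 2, against 2.27 and 2.44% over all protein coding genes. The most read after Ppp1r1a-202 were the retained-intron transcripts Ppp1r1b-205, with 28 and 9 reads, and Ppm1a-208, with 16 and 15, and the processed transcript Ppp1r3g-202, with 15 and 6. Ppm1a-208 took 8.65% of the annotated Ppm1a reads in replicate 1 and 15.3% in replicate 2.

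The classes that the authors gave to the reads differed in make-up between the phosphatase genes and all genes by point value. Annotated transcripts held 75.3% (74.4 to 76.2%) of phosphatase reads in replicate 1 and 73.9% (72.7 to 74.96%) in replicate 2, and 72.7 and 71.2% over all annotated genes. Incomplete matches, which lack introns at one or both ends of a transcript, held 14.5% (13.8 to 15.3%) and 15.8% (14.9 to 16.7%), and 10.6 and 11.6% over all genes. New combinations of annotated splice sites held 3.57 and 4.46% (6.47 and 6.54% over all genes), new splice sites 2.98 and 2.83% (4.20 and 4.10%), and Genomic reads 3.63 and 3.08% (6.04 and 6.61%).

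Ppp2r1a alone held 695 of the 1334 incomplete phosphatase reads in replicate 1 and 462 of the 951 in replicate 2. Within the gene, 44.0% of 1578 reads were incomplete in replicate 1, and 45.9% of 1006 reads were in replicate 2. One chain of 11 exons, beginning at the fifth of the 15 exons of Ppp2r1a-201, had 559 reads in replicate 1 (35.4%, 33.1 to 37.8%) and 372 in replicate 2 (37.0%, 34.05 to 40.01%). The deposited model of this chain starts at chr17:20956577 on the plus strand, 128 bases upstream of that exon, at the annotated start of the retained-intron transcript Ppp2r1a-206. Where the single reads begin is not visible in models, and the cause of the chain was not tested. Without Ppp2r1a, incomplete matches held 9.06% of phosphatase reads by the mean of both libraries, against 15.1% with it. The share without Ppp2r1a lay below that of all annotated genes, 10.6% in replicate 1 and 11.6% in replicate 2. Incomplete matches were also frequent in Ppp1r9b (41.9% in replicate 1 and 42.2% in replicate 2), Ppp2r5d (35 of 100 and 22 of 63 reads) and Ppp2r3c (56.8 and 69.7%).

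Genomic reads were frequent in some genes. Among genes with 50 or more reads, their share was highest in Ppp1r9a, where replicate 1 had 25 of 32 and replicate 2 had 15 of 18 reads. Next came Ppp1r13b with 49 of 87 and 24 of 55, Ppm1l with 19 of 44 and 9 of 28, and Ppm1e with 39 of 111 and 17 of 50. For the actin-targeting subunit gene Ppp1r9a this left 7 reads in replicate 1 and 3 in replicate 2 in other classes.

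**Figure D5:**
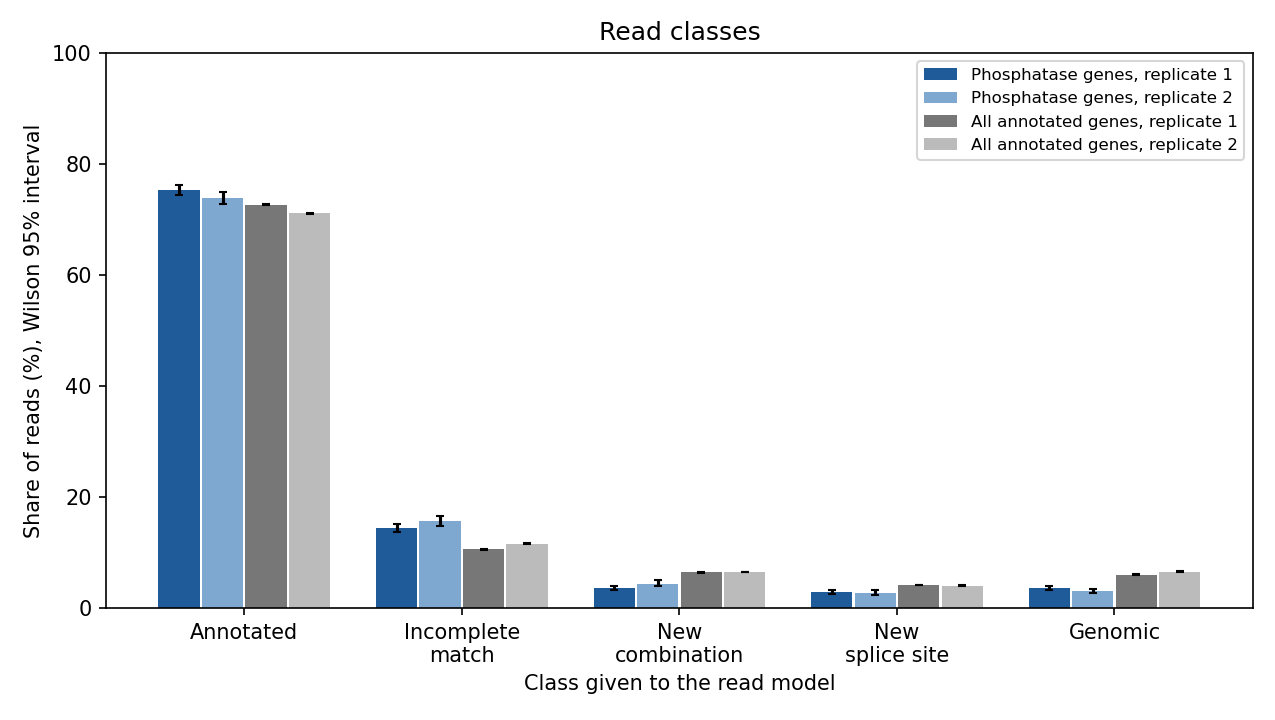
Share of reads in each class, in percent, with Wilson 95% intervals as bars; dark and light blue are the phosphatase genes in replicate 1 and replicate 2, dark and light grey all annotated genes. Incomplete matches stand at 14.5% in replicate 1 and 15.8% in replicate 2 for the phosphatase genes, above the 10.6 and 11.6% of all genes. Without Ppp2r1a, which is not drawn apart, the phosphatase share was 9.06% by the mean of both libraries, below that of all genes.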

How the data were processed

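Long-read RNA sequencing of total RNA from the left cerebral cortex was deposited as unnormalized counts of reads for every transcript model seen in a library, with models on mm10 under the GENCODE M21 annotation, per the file headers. TALON is named in the source field of the annotation files. Gene and class of each model are the authors' own, and models without a read are not listed. Versions of the upstream tools were not given in the sources used here. ERCC spike-ins, 14936 reads in replicate 1 and 8856 in replicate 2, were left out of the totals.

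Counts were summed per gene with Python 3.11.15 and pandas 2.3.3. A two-sided exact binomial test, conditional on the mouse reads of each library (SciPy 1.17.1), compared the libraries for each gene that had at least 10 reads in both together, with Benjamini-Hochberg adjustment over all genes and a threshold of 0.05; log2 ratios use a pseudocount of 0.5 reads. No count model can test 1 group, so edgeR 4.0.16 (R 4.3.3) served only for TMM scaling (factors 0.977 and 1.02). Chains were matched between libraries by intron positions, and Fisher's exact test compared leading chains and exons where each library had 20 or more reads. The limit of a count of 0 is 3 reads. The gene test and the leading-chain test were checked on simulated data that held counting error alone. That check does not cover other variation between libraries. Exon and coding sequences were read from the GENCODE M21 transcripts.

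The members and lists were chosen with earlier results of these data known. Named genes were the catalytic, scaffold, B, PP4, PP6 and Ppm1 genes, the 25 most abundant members, called genes, the 5 largest ratios each way with 50 or more reads, genes with 0 to 3 reads, the 3 most abundant of each PP1 role, the 5 most abundant partners, and alternative exons, chains and Genomic shares by abundance. End exons, incomplete chains and reading frames were added after seeing the data. Reads were not corrected for duplicates. Counts of overlapping genes and of near-identical copies are uncertain. Alternatives were other library scaling, read minimums, read classes and leaving out either library.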

Additional observations from a re-analysis of the deposited data

Results flagged for a closer look

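Reads of antisense models, which no comparison above uses, lay over phosphatase genes on the opposite strand. They numbered 435 in replicate 1 and 430 in replicate 2 over 53 genes, and 10 genes had 10 or more in each library, above the limit that a count of 0 allows. Ppm1h had 105 antisense reads in replicate 1 and 76 in replicate 2, against 28 and 23 reads on its own strand. Opposite Ppm1h the annotation lists Gm36208, A430028G04Rik and Gm47582. Ppp1r16b had 19 and 14 antisense reads, against 6 and 2 on its own strand. Ppp1r10 had 34 and 19, and Ppm1b 24 and 20. Ppp1r7, which lies opposite Pask, had 17 and 23, and Ppp1r12c 15 and 11. Ppm1e had 12 and 16, Ppp2r2a 12 and 13, Ppp2r2d 10 and 12, and Ppp2r5e 10 and 13. Of these 10 genes, Ppm1e alone had spliced antisense reads, 2 in both libraries together. The cause of these reads was not tested.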

How the results depend on the processing

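Ppp1r1b remained the 1 phosphatase gene called under every alternative run: TMM scaling, minimums of 20 reads or 1 read, annotated transcripts alone and no Genomic reads, with adjusted p from 0.00132 to 0.0290 (exact binomial test). The background of 100 called genes was 35 on annotated transcripts alone and 176 without Genomic reads. The 10 largest log2 ratios of genes with 50 or more reads kept their direction wherever they were recomputed, which for Ppp6r2 leaves out annotated transcripts alone. The median log2 ratio of the phosphatase genes ran from -0.01 on annotated transcripts alone to 0.06 under TMM. Their median level was 33.2 RPM without replicate 1 and 37.8 RPM without replicate 2. On annotated transcripts alone the median was 29.5, scaled to the annotated-transcript reads of each library and so not comparable with these RPM values. On annotated transcripts alone, Ppp2ca held 80.2% of the PP2A catalytic reads and Ppp2r1a 96.9% of the scaffold reads. The level of Ppp2ca (1341, scaled to the annotated-transcript reads) then exceeded that of Ppp2r1a (1139 on the same scale). Ppp2r5c then had 25.3 on the same scale and 3.78% of the B56 reads, against 16.9% over all read classes. Without Ppp2r1a, 78.9% of the phosphatase reads were on annotated transcripts and 9.06% were incomplete. Without Ppp2ca, 2.02% of annotated reads were of a non-coding type. Detected genes numbered from 75 to 79 with either library left out. No leading chain was called with minimums of 10 or 50 reads or on annotated chains alone. With annotated models alone, 2 exons, in Ppp1r1a and Ppp1r16a, could be tested and neither was called; the other 7 stood at 0 or 100% inclusion. The planned comparison of protein sequences and docking motifs was not run. No paired analysis was possible because the series holds 1 group. Depth limits genes under 10 reads in total and shares of rare chains.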
